A study of Arabidopsis thaliana with 24 samples.

Results

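Shoots of Arabidopsis thaliana were compared between 3 to 6 h and 0.5 to 1 h at 4 °C, to find transcripts that moved between the start of chilling and the next hours. The comparison used 8 of the 24 arrays of the series, 4 from the later times (both replicates at 3 h and at 6 h) against 4 from the early times (both replicates at 0.5 h and at 1 h). A probe set, the group of short probes that reads 1 transcript, was kept when its change passed the test and all 4 later arrays lay beyond all 4 early ones. Of 22746 probe sets, 1966 (8.64%) were kept, 901 higher and 1065 lower at 3 to 6 h.

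In the cold, Arabidopsis induces CBF transcription factors, which bind the promoters of COR genes. COR proteins, among them the dehydrins, protect membranes and enzymes during dehydration by freezing. Chilling also releases calcium into the cytosol, a signal shared with touch and wounding, and slows or shifts the circadian clock, so that many leaf transcripts reflect both the temperature and the hour.

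The plants of both groups were Col-0 seedlings on Murashige and Skoog medium, raised at 24 °C and 50% humidity with 16 h of light a day. On day 16, after 3 h of light, their boxes were set on ice in a 4 °C cold room, under 20 µEinstein of room light plus a lamp of 40 µEinstein. Shoots and roots were collected separately at 0.5, 1, 3, 6, 12 and 24 h, with 2 ATH1 arrays for each tissue and time. The later arrays thus fell 6 and 9 h after lights on and the early arrays 3.5 and 4 h after lights on. No plants kept at 24 °C were analysed here. For every change between 0.5 and 12 h, the length of chilling and the hour of the day therefore cannot be told apart. The 24 h arrays fell 27 h after lights on, near the hour of the early arrays but on the next day, again with no unchilled plants beside them. Whether the 2 arrays of a group stand for separate cultures is not said in the labels, so that p-values here reflect the spread between these arrays only, and that spread may be technical. In whole shoots, more cells of a type and more RNA per cell cannot be told apart either.

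The labelled tissue held against its markers. RCA, the Rubisco activase gene, read 4635 to 5812 in shoots, against 83.0 to 247 in roots. The root genes OSM34, AT3G13610 and AT3G01190 read at most 16.1 on shoot arrays and at least 677 on root arrays, while PYK10, another root gene, read 407 to 752 in shoots and 2750 to 3874 in roots. None of these 4 root marker genes passed the test between the later and early shoot arrays, adjusted or not (limma). Replicates correlated at 0.969 to 0.991, and each shoot array held 11343 to 12724 probe sets at 30 or more, below which values were treated as dim and without order. Some arrays stood apart. Replicate 1 after 1 h read 309 for the GAPDH control and 412 for the ubiquitin control, against 799 to 1154 and 1056 to 1741 on the other shoot arrays, and both 0.5 h arrays read 212 and 246 for the 25S ribosomal RNA control, against 889.5 to 1862 on the other shoot arrays. Without replicate 1 after 1 h, 2124 probe sets were kept, and against the 1 h arrays alone 1801 were kept.

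Of all probe sets, 13.9% passed the test in shoots (3161, limma with Benjamini-Hochberg adjustment, adjusted p under 0.05), 1393 or 6.12% higher and 1768 or 7.77% lower at 3 to 6 h. The higher share of the calls was 44.1% as deposited, 51.3% after quantile normalization and 56.0% after median centring of each array, so the values do not settle which direction was the more frequent. With the 8 shoot arrays alone it was 57.5% as 4 groups (1056 higher, 779 lower) and 73.3% as 2 pooled groups (530 higher, 193 lower). Leaving out 1 shoot array moved the higher calls between 1159 and 1690 and the lower calls between 1042 (without replicate 2 after 3 h) and 2242 (without replicate 2 after 1 h). Kept changes were 3.96% of all probe sets upwards and 4.68% downwards. Increases were larger than decreases. The 901 increases had a median log2 change of 1.06, from 0.27 to 6.52, and 476 of them (52.8%) reached 2-fold, 177 reached 4-fold and 21 reached 16-fold. The 1065 decreases had a median log2 change of -0.47, from -0.22 to -2.86, and 77 (7.23%) reached 2-fold, 6 reached 4-fold and none 8-fold. The median over all probe sets was -0.08. Of the increases, 90 were under 30 on all 4 early arrays and at or above 30 on all 4 later ones. In the opposite sense, 36 decreases were under 30 on every later array and at or above 30 on every early one.

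**Figure D1:**
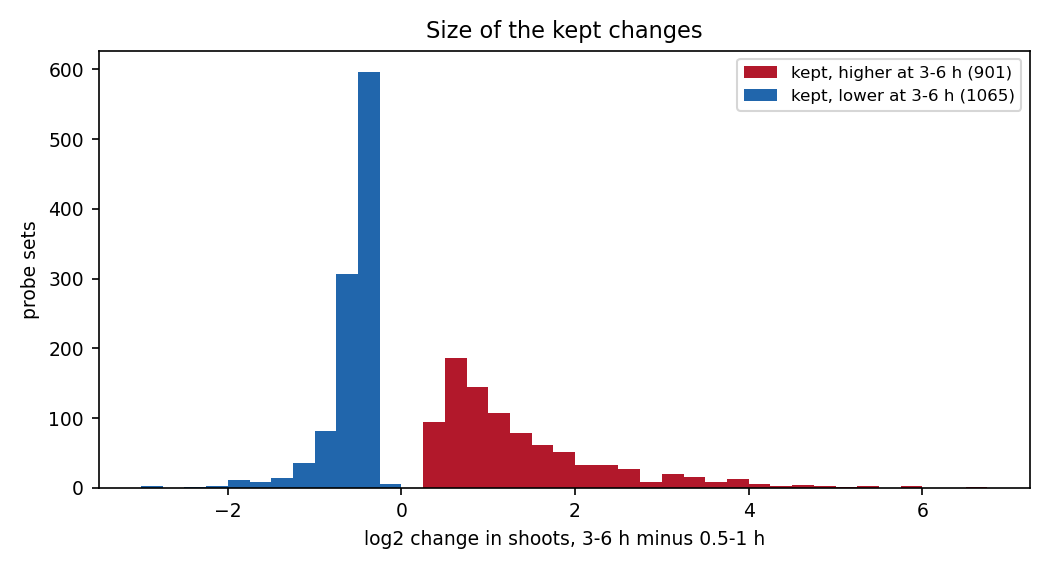
Number of kept probe sets by log2 change in shoots, 3 to 6 h minus 0.5 to 1 h, in bins of equal width; red, 901 higher at 3 to 6 h, and blue, 1065 lower. The blue bars crowd close to 0, with a median of -0.47, and the red bars run out to 6.52.

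The steepest increase was that of AT5G62360, whose protein belongs to a family of inhibitors of invertase and of pectin methylesterase, enzymes of the cell wall. It read 1394 and 1268 after 3 h and 3323 and 3262 after 6 h, against 3.55 and 3.08 after 0.5 h and 38.7 and 22.04 after 1 h. The later arrays lay far above the early ones with no overlap, and the 1 h arrays read above the 0.5 h arrays (log2 difference 1.57, adjusted p = 0.019), a call lost without replicate 1 after 1 h (1.27, adjusted p = 0.19) and without either 0.5 h array. Both 0.5 h arrays and replicate 2 after 1 h were under 30 for this gene, where values were treated as without order. Its change was 6.52 ± 0.22 on the log2(value + 10) scale (SE, adjusted p = 2.2e-12). It stayed high, at 4502 and 4256 after 12 h and 2586 and 1965 after 24 h. Its direct neighbour on the chromosome, AT5G62350, was also kept as higher.

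The 15 genes with the largest increases held 2 of the thaumatin-like family, whose name comes from a sweet plant protein and which includes defence proteins. AT4G36010 read 673 and 574 after 3 h and 1879 and 2282 after 6 h, against 22.8 and 17.3 after 0.5 h and 28.6 and 27.4 after 1 h. All early arrays were dim and all later ones were bright, a change of 5.09 ± 0.15 (SE, adjusted p = 4.7e-13). AT1G20030 read 111 and 65.8 after 3 h and 610 and 738 after 6 h, against 1.33 and 9.88 after 0.5 h and 8.18 and 3.90 after 1 h. Its later arrays all lay above its dim early arrays, with 6 h above 3 h, and its change was 4.05 ± 0.20 (SE, adjusted p = 2e-10).

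Another 2 genes encode transporters of the major facilitator superfamily, which carry small molecules across membranes. AT4G34950 read 149 and 153 after 3 h and 815 and 831 after 6 h, against 1.69 and 2.17 after 0.5 h and 20.7 and 17.3 after 1 h. The groups did not overlap, and the change was 4.3 ± 0.12 (SE, adjusted p = 2e-13). AT1G22570 read 668 and 693 after 3 h and 1158 and 1194 after 6 h, against 29.1 and 36.7 after 0.5 h and 58.9 and 55.6 after 1 h, a change of 4.08 ± 0.10 (SE, adjusted p = 1.1e-13). AT1G22570 read higher at each successive time from 0.5 to 6 h. AT4G34950 did so from 1 to 6 h, while all its early arrays were under 30, where values were treated as without order. The difference of 1 h from 0.5 h was 1.28 for AT4G34950 (limma, adjusted p = 0.001), among these dim values, and 0.65 for AT1G22570 (adjusted p = 0.034). Without replicate 1 after 1 h these were 1.19 (adjusted p = 0.018) and 0.62 (adjusted p = 0.18), and the call for AT1G22570 was also lost without either 0.5 h array. After 6 h they parted: AT4G34950 reached 1804 and 1555 after 12 h, while AT1G22570 read 919 and 955 there.

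Of the 15 genes, 3 have products tied to signalling. CML38, a calmodulin-like calcium sensor known from touch and wounding, read 1435 and 1503 after 3 h and 1059 and 923 after 6 h, against 19.9 and 72.6 after 0.5 h and 46.5 and 213 after 1 h. The groups did not overlap, although the early arrays were uneven, with replicate 2 above replicate 1 at both early times, and the change was 4.03 ± 0.37 (SE, adjusted p = 6e-07). It was back at 47.7 and 83.9 after 12 h. AT3G59350, a protein kinase gene, read 390 and 402 after 3 h and 1292 and 1039 after 6 h, against 38.6 and 27.7 after 0.5 h and 39.8 and 31.3 after 1 h, with no overlap and a change of 3.97 ± 0.15 (SE, adjusted p = 1.2e-11). AT2G17660, whose product is related to the plant immunity regulator RIN4, read 284 and 281 after 3 h and 491 and 482 after 6 h, against at most 8.81 on the early arrays. Its change was 4.70 ± 0.22 (SE, adjusted p = 1.1e-10).

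Of the 15 genes, 3 more have proteins of less known role. AT1G11210 read 590 and 513 after 3 h and 1552 and 1423 after 6 h, against 2.59 and 1.72 after 0.5 h and 4.74 and 9.63 after 1 h, a change of 5.99 ± 0.15 (SE, adjusted p = 1.2e-13). AT1G51090, which encodes a protein with a heavy-metal-associated domain, read 540 and 428 after 3 h and 1666 and 1502 after 6 h, against 9.18 and 3.20 after 0.5 h and 2.03 and 10.6 after 1 h, a change of 5.80 ± 0.18 (SE, adjusted p = 8e-13). In both, every early array was dim and every later one bright. AT1G70420 changed by 4.55 ± 0.15 (SE, adjusted p = 1.9e-12), and its 6 h arrays, at 1606 and 1379, were its brightest in shoots, against 116 and 138 after 24 h. Only 8 of the 15 highest kept probe sets of any annotation have 1 gene named, so the genes described here are not the 15 highest probe sets.

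The remaining 4 of the 15 were COR genes, and every measured gene of the COR list moved. A gene counts as measured here if the annotation gives it a probe set with no other gene. The array may also read the other loci, through probe sets with no gene or several genes listed. All 6 measured members, of 16 loci in the list, were higher at 3 to 6 h and kept, with a median log2 change of 4.01, and all 6 were also higher at 3 h alone and against either early time alone. The list's summed intensity was 2486 to 11120 on the later arrays and 266 to 576 on the early arrays. The list is of genes known for cold induction, chosen with results of these arrays known, so the direction is no independent evidence.

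Among the chloroplast-targeted protectors, COR15B (AT2G42530) read 625 and 302 after 3 h and 1698 and 1640 after 6 h, against 36.2 and 21.2 after 0.5 h and 23.8 and 53.9 after 1 h. The groups did not overlap, the 3 h replicates differed by more than the 6 h ones, and the change was 4.36 ± 0.22 (SE, adjusted p = 2.4e-10). COR15A (AT2G42540) read 538 and 169 after 3 h and 1661 and 1483 after 6 h, against 36.5 and 44.1 after 0.5 h and 42.6 and 66.2 after 1 h, with replicate 1 again the brighter at 3 h and a change of 3.64 (adjusted p = 1e-07). The 2 genes lie side by side and are close copies, and the probes may not fully separate their transcripts.

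The dehydrin COR47 (AT1G20440) read 1856 and 1780 after 3 h and 4501 and 4411 after 6 h, against 196 and 168 after 0.5 h and 492 and 325 after 1 h. It read higher at each successive time to 6 h, with no overlap and a change of 3.35 (adjusted p = 8.6e-10). Its difference of 1 h from 0.5 h was 1.095 (limma, adjusted p = 0.044), in a comparison whose calls depend on single arrays, as given below. The dehydrin LTI30 (AT3G50970) read 93.6 and 126 after 3 h and 1966 and 1891 after 6 h, against 12.3 and 27.4 after 0.5 h and 15.3 and 24.5 after 1 h. Its pooled change of 4.04 ± 0.15 (SE, adjusted p = 1e-11) was made mostly of the 6 h arrays. The 2 genes known for linking cold to the clock, COR27 (AT5G42900) and AT4G33980 (also called COR28), behaved like LTI30. COR27 read 52.7 and 48.4 after 3 h and 470 and 480 after 6 h, against at most 1.89 on the early arrays (change 3.98 ± 0.14, SE, adjusted p = 2.2e-12). AT4G33980 read 72.0 and 60.1 after 3 h and 820 on both 6 h arrays, against at most 3.90 on the early arrays (change 4.39 ± 0.12, SE, adjusted p = 2.1e-13).

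The decreases were smaller, and among genes with a name the steepest was that of AT3G26510. This gene, which encodes a protein with a PB1 interaction domain, read 140 and 202 after 3 h and 44.6 and 29.8 after 6 h, against 401 and 409 after 0.5 h and 412 and 374 after 1 h. The early arrays were even and the later ones all lower, with 6 h the lowest, a change of -2.17 ± 0.17 (SE, adjusted p = 6e-08). AT1G04770 (SDI2, known from sulfur deficiency) read 105 and 103 after 3 h and 18.9 and 24.9 after 6 h, against 174 and 292 after 0.5 h and 195 and 353 after 1 h. Replicate 2 was the brighter at both early times, the groups did not overlap, and the change was -2.07 ± 0.21 (SE, adjusted p = 2.2e-06).

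AT4G28240, of a wound-responsive protein family, read 333 and 303 after 3 h and 144 and 164 after 6 h, against 748 and 776 after 0.5 h and 1109 and 938 after 1 h. All later arrays lay below all early ones, by 1.14 on the log2 scale at the nearest pair, the widest such gap among the 15 steepest decreases, and the change was -1.94 ± 0.11 (SE, adjusted p = 8.7e-10). AT1G23390, a kelch-repeat F-box gene whose protein marks chalcone synthase of the flavonoid pathway for removal, read 883 and 1013 after 3 h and 237 and 181 after 6 h, against 1350 and 1450 after 0.5 h and 1339 and 1587 after 1 h. Its 3 h arrays lay between the early and the 6 h arrays, and its change of -1.66 ± 0.16 (SE, adjusted p = 8.8e-07) did not pass the test at 3 h alone (-0.59, adjusted p = 0.12).

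The same held for AT3G56360, AT2G38820 and AT1G60590, whose changes at 3 h alone were -0.80, -0.68 and -0.73 with adjusted p = 0.14, 0.092 and 0.11. AT1G60590, of the pectin lyase-like family, read 269 and 177 after 3 h and 96.0 and 58.7 after 6 h, against 301 and 339 after 0.5 h and 471 and 387 after 1 h, so that the brightest later array lay just below the dimmest early one. It was lowest at 12 h (36.3 and 36.6), and at 24 h it read 349 and 391, within the range of its early arrays. AT4G28240 likewise read 906 and 921 after 24 h, and AT2G38820 read 203 and 332 there, against 195 to 213 early. These were the only 3 of the 15 steepest decreases with both 24 h arrays at or above the lowest early array. In the other 12 both 24 h arrays lay below all early ones, as in AT3G26510 with 47.8 and 87.6 and AT5G08350 with 21.7 and 23.4.

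The other 8 steep decreases ran from -1.96 for AT3G07350 to -1.47 for ZCF37. Among them were AT3G23880, an F-box gene (-1.81 ± 0.16, SE, adjusted p = 3e-07), AT5G08350, a GRAM-domain gene (-1.78 ± 0.11, SE, adjusted p = 3.2e-09), and AT1G49200, a RING-type gene (-1.69 ± 0.17, SE, adjusted p = 1.3e-06). AT3G07350 read 33.0 and 70.7 after 3 h and 34.6 and 22.1 after 6 h, against 133 and 153 after 0.5 h and 266 and 167 after 1 h. Its later arrays all lay below its early ones, and 6 h did not differ from 3 h by the test (-0.64, adjusted p = 0.40). P1R1 changed by -1.90 and AT3G06070 by -1.85. ZCF37 and AT4G11710 were dim throughout the later arrays, at most 23.2 and 18.4, and the probe set of AT4G11710 is of a design that may also read related transcripts.

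Part of the kept changes went further between 3 and 6 h. Of the 901 increases, 270 (30%) were also higher at 6 h than at 3 h and 6 were lower, where 3.69% of all probe sets passed that test, 2.27% higher and 1.42% lower. Of the 1065 decreases, 120 (11.3%) were lower still at 6 h and none were higher at an adjusted p under 0.05 (limma), with 5 higher and 289 lower at an unadjusted p under 0.05. With the 3 h arrays as the only later group, 577 (64%) of the increases and 186 (17.5%) of the decreases passed the test in the same direction. With the 6 h arrays alone 839 (93.1%) and 857 (80.5%) did. These members were kept through the same arrays, so the shares are description. The decreases were also the smaller changes (median -0.47 against 1.06), and each setting used 2 later arrays in place of 4. The shares therefore do not tell when a change began. The count for 6 h against 3 h over all probe sets, 839, became 514 without replicate 2 after 3 h and 488 without replicate 2 after 6 h.

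The largest step within the later times was that of LTI30, whose 6 h arrays exceeded its 3 h arrays by 4.03 ± 0.22 (SE, adjusted p = 7.7e-09). Among kept probe sets with a named gene, next came AT1G64890, a major facilitator gene, with 697 and 608 after 6 h, against 59.9 and 39.1 after 3 h (3.5 ± 0.17, SE, adjusted p = 7.2e-09), AT4G33980 (3.45) and AT3G04010, a glycosyl hydrolase gene of the family of wall glucanases (3.1). COR27 followed with 3.00. These genes were higher again at 12 h, where AT3G04010 read 1993 and 2449.

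The 6 increases that were lower at 6 h than at 3 h included AT4G29780. It read 332 and 152 after 6 h, against 1027 and 1070 after 3 h, a difference of -2.17 ± 0.36 (SE, adjusted p = 0.0012), while its early arrays read 42.8 and 79.3 after 0.5 h and 81.2 and 114 after 1 h. It was the only gene with 1 annotation among the 5 lowest in this step that belonged to the increases, and at 12 h it read 30.6 and 24.2, under its early arrays. The zinc finger repressor STZ (AT1G27730), a gene of many early stress responses, read 2089 and 2135 after 3 h and 1718 and 1203 after 6 h, against 148 and 323 after 0.5 h and 545 and 495 after 1 h. It was kept with a change of 2.33 (adjusted p = 6.7e-08), and its lower 6 h values did not pass the test (-0.55, adjusted p = 0.38). CML38 also read lower at 6 h than at 3 h, by a difference of -0.57 that did not pass (adjusted p = 0.82).

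**Figure D2:**
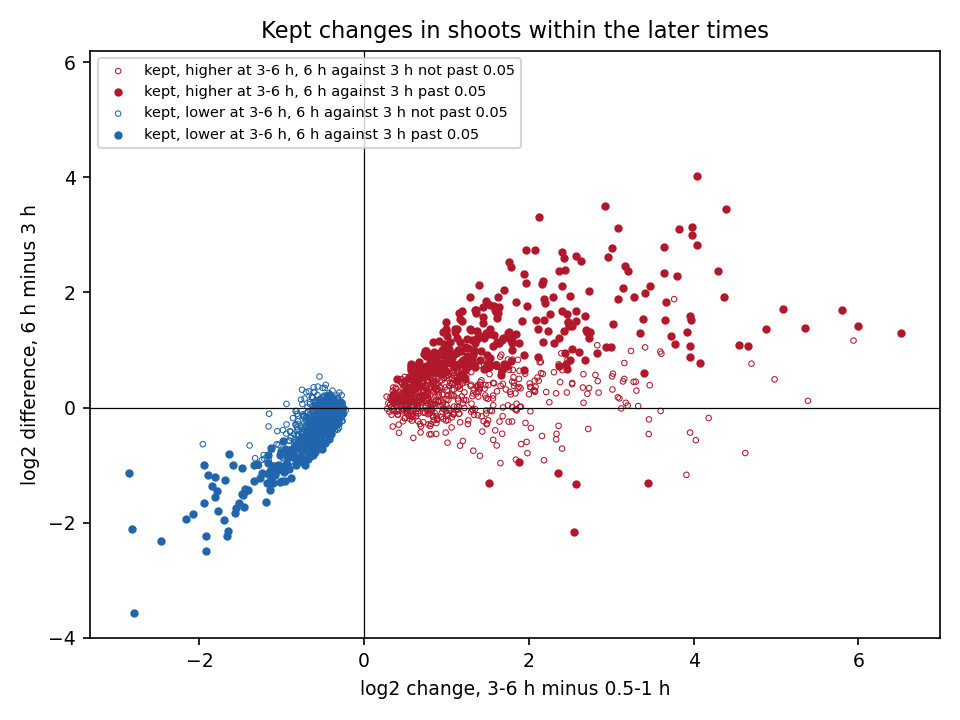
Each kept probe set by its log2 change in shoots, 3 to 6 h minus 0.5 to 1 h (x axis), and its log2 difference of 6 h minus 3 h (y axis); red, higher, and blue, lower at 3 to 6 h, filled where 6 h against 3 h passed an adjusted p of 0.05. Most filled red points lie above 0 and all filled blue points below it, and the lowest filled red point, at -2.17, is AT4G29780.

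At 1 h against 0.5 h, 1.78% of all probe sets passed the test (405), and 65 of the 901 increases (7.21%) were already higher at 1 h and 1 was lower, against 1.18% and 0.602% of all probe sets. That count rests on single arrays: without replicate 1 after 1 h it was 126 over all probe sets, without replicate 2 after 1 h 2557, and without replicate 1 or replicate 2 after 0.5 h 131 and 92. At 1 h against 0.5 h, 6 of the 1065 decreases (0.563%) were already lower, near the 0.602% of all probe sets, and 3 (0.282%) were higher. Of the increases, 738 (81.9%) passed against the 1 h arrays alone and 813 (90.2%) against the 0.5 h arrays alone. Of the decreases, 552 (51.8%) and 670 (62.9%) did. Both settings use 2 early arrays in place of 4, and the members were kept through these same arrays. Median centring left 899 increases past the test and 761 decreases (71.5%).

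At the edge of the rule the members are slight. AT1G73170, just inside, read 238 to 298.2 on the later arrays and 298.3 to 383 on the early arrays. AT5G07890, just outside, read 48.1 to 69.9 on the later arrays and 69.88 to 94.2 on the early arrays, although its change of -0.50 passed the test (adjusted p = 0.008).

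Gene lists of the cold response gave the following counts, read beside the 6.12% and 7.77% of all probe sets called higher and lower. Of 3 measured genes for early cold and stress transcription factors, from a list of 29 loci, STZ and WRKY53 were called higher and ORA47 lower. WRKY53, a regulator of leaf ageing and defence, read 57.3 and 119 after 3 h and 34.6 and 24.0 after 6 h, against 18.8 and 18.6 after 0.5 h and 44.0 and 17.7 after 1 h, so that its groups overlapped. Its call (0.85, adjusted p = 0.019) was lost against the 1 h arrays alone (0.64, adjusted p = 0.18), with 6 h as the only later time (0.22, adjusted p = 0.68), and when any of 5 of the 8 shoot arrays was left out (adjusted p = 0.050 to 0.10). ORA47, an activator of jasmonate synthesis, read 75.6 and 78.3 after 3 h and 28.0 and 27.2 after 6 h, against 48.4 and 70.7 after 0.5 h and 91.9 and 115 after 1 h. Its 3 h arrays lay within the early range, and the call (-0.62, adjusted p = 0.0072) was lost at 3 h alone (-0.019, adjusted p = 0.98) and against the 0.5 h arrays alone (-0.26, adjusted p = 0.38). The CBF genes themselves were not analysed here.

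Of 3 measured touch, wound and jasmonate genes, from 28 loci, CML38 rose and the other two were at most 12.4 on any of the 8 shoot arrays. Both measured clock genes were called higher. GI (GIGANTEA, AT1G22770), a clock and flowering gene with an afternoon peak, read 117 and 124 after 3 h and 519 and 672 after 6 h, against 36.8 and 53.6 after 0.5 h and 63.9 and 56.8 after 1 h. It was kept, with a change of 2.18 (adjusted p = 3.4e-10) and a further step of 2.2 between 3 and 6 h (adjusted p = 1.9e-07), and its arrays also follow the hours since lights on. AT5G52660, a clock-type MYB gene, changed by 0.46 (adjusted p = 0.0021) and overlapped between the groups. Its call was lost against the 1 h arrays alone (0.32, adjusted p = 0.093) and at 3 h alone (0.02, adjusted p = 0.97).

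Of 8 measured abscisic acid and LEA genes, which mark water loss, AT1G16850 alone was called. It read 4.98 and 0.762 after 3 h and 126 and 134 after 6 h, against 1.67 to 2.67 on the early arrays, so that the change (1.78, adjusted p = 3.6e-07) came from 6 h alone, and it reached 3380 and 2525 after 24 h. None of 5 starch, sugar and proline genes, 11 nuclear photosynthesis genes or 2 heat shock genes passed an adjusted p of 0.05, with median changes of 0.14, -0.12 and -0.50. At an unadjusted p under 0.05 (limma), 2 of the first list were higher and 2 lower, none of the second passed, and 1 of the third was lower. Among them were PWD and DPE1, enzymes of starch breakdown. DPE1 read 46.6 and 40.6 after 3 h and 51.4 and 46.0 after 6 h, against 30.8 to 51.3 early. PWD read 123 and 121 after 3 h and 232 and 223 after 6 h, against 129 to 162 on the early arrays. Its 6 h arrays exceeded its 3 h arrays by 0.85 (limma, adjusted p = 0.00073), although its pooled change did not pass.

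Of 23 measured expansin and xyloglucan hydrolase genes, 4 were called higher and 1 lower, the lower share being under that of all probe sets, and 18 did not pass the test, with a median of -0.10. XTH18 (AT4G30280) read 83.6 and 144 after 3 h and 149 and 120 after 6 h, against 10.8 and 4.58 after 0.5 h and 11.2 and 7.28 after 1 h, a change of 2.85 (adjusted p = 8e-08). Its neighbour and close copy XTH19 (AT4G30290) read 80.6 and 93.7 after 3 h and 87.5 and 78.0 after 6 h, against 8.74 to 29.0 early (2.02, adjusted p = 6.8e-07). Both were dim on the early arrays and level between 3 and 6 h, and probes may read both transcripts. EXLA1, an expansin-like gene, read 266 and 343 after 3 h and 636 and 711 after 6 h, against 70.5 and 75.9 after 0.5 h and 70.0 and 129 after 1 h (2.3, adjusted p = 7.8e-08), and EXLA3 changed by 0.84 while staying under 30. EXPA8, an expansin of growing tissue, read 664 and 360 after 3 h and 270 and 177 after 6 h, against 605 to 821 early, so that 1 of the 3 h arrays lay within the early range (-0.99, adjusted p = 0.011). That call was lost against the 0.5 h arrays alone (-0.87, adjusted p = 0.064) and at 3 h alone (-0.43, adjusted p = 0.55), with a pseudocount of 1 (adjusted p = 0.13), and without replicate 2 after 3 h or after 6 h.

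Single members stood out in other lists. TIL (AT5G58070), a temperature-induced lipocalin, was the only one of 12 membrane lipid loci with a probe set annotated to it alone. It read 1337 and 1038 after 3 h and 2270 and 2301 after 6 h, against 712 to 796 early (1.12, adjusted p = 7.8e-06). Of 3 low-oxygen genes 2 rose and were kept. PDC2 (AT5G54960), a pyruvate decarboxylase of alcohol fermentation, read 103 and 111 after 3 h and 262 and 396 after 6 h, against 35.2 to 68.7 early (1.92, adjusted p = 1.7e-06). The lactate dehydrogenase gene AT4G17260 changed by 0.90 (adjusted p = 0.00026).

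Of 7 flavonoid and anthocyanin genes only UGT78D2, a flavonoid glucosyltransferase, was called at an adjusted p under 0.05, at 316 and 287 after 3 h and 445 and 477 after 6 h, against 168 to 213 early (0.93, adjusted p = 2.8e-06). Of 7 endoplasmic reticulum folding genes only BZIP60, an activator of the unfolded protein response, was called, at 143 and 154 after 3 h and 133 and 132 after 6 h, against 74.7 to 112 early (0.59, adjusted p = 0.0013). Its 4 later arrays were nearly level and lay above all early ones. Of 13 ribosome biogenesis genes AT3G03920, for a protein of small nucleolar particles, was lower (-0.38, adjusted p = 0.024), a call lost after median centring, and of 6 auxin genes IAA20 was lower while under 30 on all 8 shoot arrays (-0.51, adjusted p = 0.043), a call lost under most alternatives, median centring (adjusted p = 0.068) and quantile normalization (adjusted p = 0.081) among them.

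Chloroplast-encoded transcripts varied among the early arrays. Of 69 measured genes 11 were called higher and none lower (25 and none at an unadjusted p under 0.05, limma), with a median of 0.37, and 2 of the 11 were kept, petN and psbJ. The lowest of the 8 shoot arrays was an 0.5 h array for most genes (replicate 1 for 28 of the 69, replicate 2 for 13), replicate 1 after 1 h for 26 and a later array for the other 2. psaC, for a subunit of photosystem I, read 1248 and 1969 after 3 h and 1908 and 1828 after 6 h, against 217 and 251 after 0.5 h and 1722 and 2128 after 1 h. Its 0.5 h arrays alone were low, and the groups overlapped through the 1 h arrays. petN, of the cytochrome complex, read 299 and 227 after 3 h and 313 and 384 after 6 h, against 78.4 and 74.4 after 0.5 h and 144 and 213 after 1 h (1.3, adjusted p = 0.0013), a call lost against the 1 h arrays alone (0.75, adjusted p = 0.14). psbJ, a small photosystem II gene, read 2333 and 2932 after 3 h and 2251 and 2634 after 6 h, against 1580 and 1915 after 0.5 h and 981 and 2184 after 1 h, where replicate 1 was the lowest array. Against the 0.5 h arrays alone 21 of the 69 were higher, against the 1 h arrays alone 1 was, and psaC then changed by -0.16 and psbD by -0.23. The 0.5 h arrays are those with the low 25S ribosomal control and replicate 1 after 1 h is that with the low GAPDH and ubiquitin controls, and their part in the chloroplast result was not tested further.

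**Figure D3:**
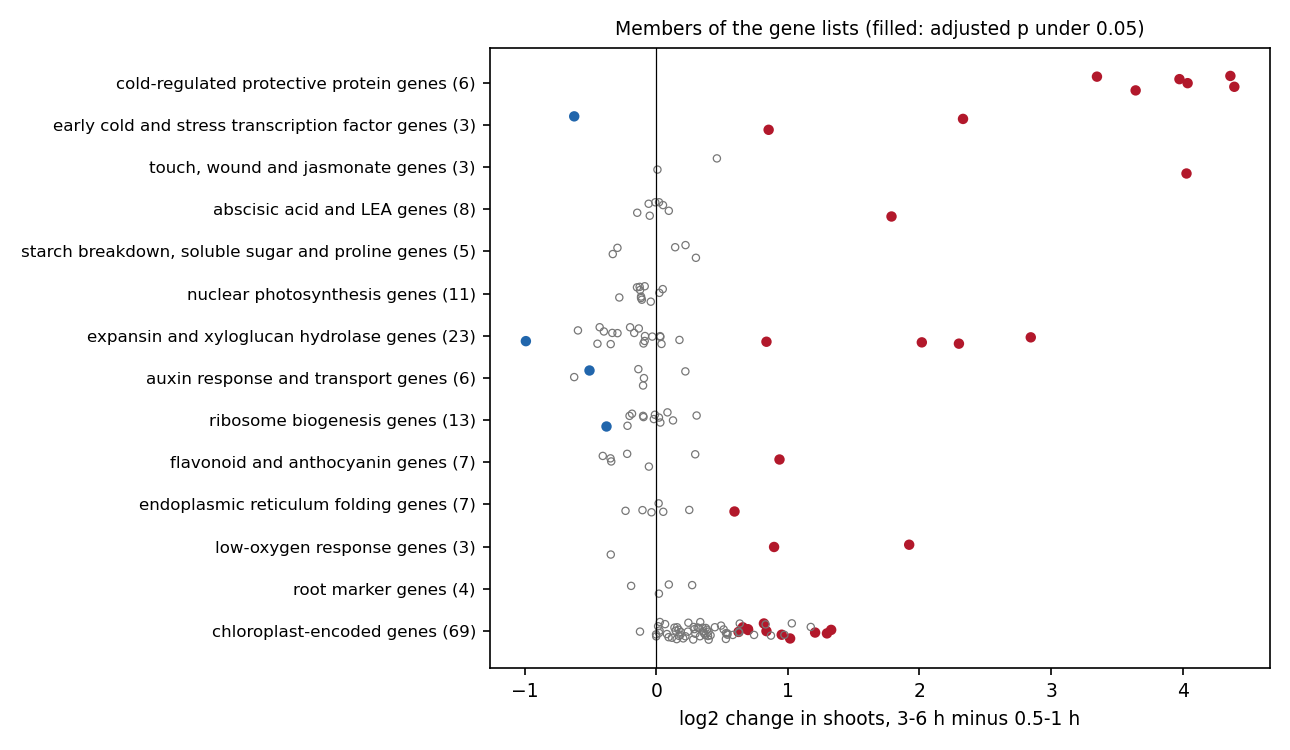
Log2 change in shoots, 3 to 6 h minus 0.5 to 1 h, of each measured member of the 14 lists with 3 or more measured genes; the number measured stands after each name, filled points passed an adjusted p of 0.05 (red higher, blue lower) and open points did not. The 6 COR genes lie between 3.35 and 4.39, and 18 of 23 expansin and xyloglucan hydrolase genes and 58 of 69 chloroplast-encoded genes are open points.

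Roots collected at the same times gave fewer calls. At 3 to 6 h against 0.5 to 1 h, 5.13% of probe sets passed the test in roots (1168, 809 higher and 359 lower), in arrays that the shoot comparison did not use, though the same fit gave the spread. Replicate 2 of the 3 h roots read 476 for the ubiquitin control, against 887 to 1877 on the other root arrays, and without it 986 probe sets passed. The root count rests on single arrays too, being 1711 (859 higher, 852 lower) without replicate 1 of the 3 h roots and 206 to 264 lower when any other of the 8 root arrays was left out. Of the 901 shoot increases 369 (41.0%) were also higher in roots, against 3.56% of all probe sets, and 6 were lower. Of the 1065 shoot decreases 97 (9.11%) were also lower in roots, against 1.58% of all, and 10 were higher. By the same rule for keeping, 625 probe sets were kept as higher in roots, and the 316 in both lists were 35.1% of the shoot list and 50.6% of the root list, where 2.75% of all probe sets were kept as higher in roots. For decreases 270 were kept in roots, and the 70 in both were 6.57% of the shoot list and 25.9% of the root list, where 1.19% of all were kept as lower in roots.

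The difference between the tissues in this change, roots minus shoots, passed the test for 4.42% of probe sets (1006, or 1551 without replicate 2 of the 1 h shoots). Since members were kept for their change in shoots, a smaller change in roots is favoured by the choice, and the values stand as description. The difference was below 0 by the test for 422 of the 901 increases and above 0 for 11, against 2.6% and 1.82% of all probe sets. AT1G51090 read 428 to 1666 on later and 2.03 to 10.6 on early shoot arrays, and 13.5 to 124 on later and 5.2 to 6.86 on early root arrays, a difference of -3.98 (adjusted p = 5.4e-08). AT1G20030 and AT4G34950 differed by -4.12 and -3.87 and read between 8.63 and 53.2 on the later root arrays. In roots AT1G20030 did not pass the test (-0.07, limma, adjusted p = 0.93), while AT4G34950 was called higher (0.43, adjusted p = 0.046). AT3G04010 rose in shoots and read 166 to 360 on later and 190 to 321 on early root arrays, so that its root level was not low but did not change by the test (0.09, adjusted p = 0.91).

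Few probe sets were kept in opposite directions in the tissues. Of the 901 kept as higher in shoots, 4 were kept as lower in roots, where 1.19% of all probe sets were. Of the 1065 kept as lower in shoots, 5 were kept as higher in roots, where 2.75% of all probe sets were. AT1G49200 fell by 1.69 in shoots, reading 64.5 and 60.8 after 3 h and 19.2 and 21.4 after 6 h, against 112 to 210 early. In roots it read 61.0 and 106 after 3 h and 91.9 and 101 after 6 h, against 26.4 and 27.0 after 0.5 h and 47.7 and 24.9 after 1 h, an increase of 1.28 (adjusted p = 8.4e-05). AT2G27830 fell by 1.24 in shoots and was called higher in roots (0.58, limma, adjusted p = 0.021). Its later and early root arrays overlapped, so it was not kept in roots. AT5G61590 (DEWAX), a repressor of leaf wax synthesis, fell in shoots by 1.22, reading 248 and 281 after 3 h and 154 and 136 after 6 h, against 366 to 559 early, and did not pass the test in roots (0.49, adjusted p = 0.26). Some shoot genes had near equal changes in roots. EXLA1 changed by 2.3 in shoots and 2.23 in roots, a difference of -0.07 ± 0.25 (SE, adjusted p = 0.93), and AT4G29780 by 2.55 and 2.77. LTI30 read 12.3 to 27.4 on the early shoot arrays and 787 to 1378 on the early root arrays.

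**Figure D4:**
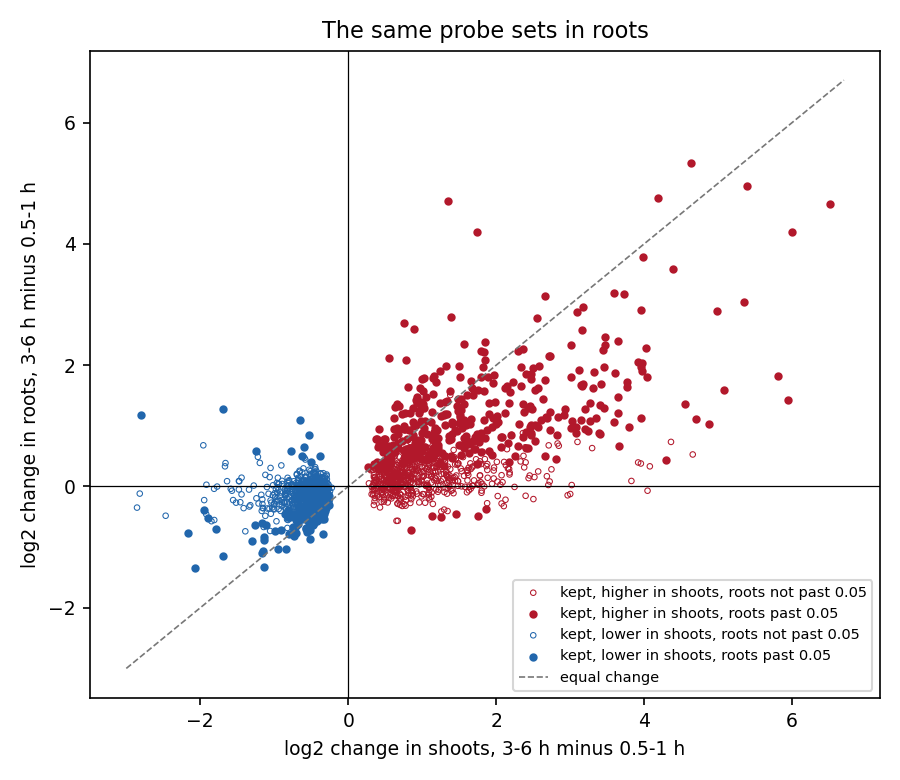
Log2 change at 3 to 6 h minus 0.5 to 1 h in shoots (x axis) and in roots (y axis) for the 1966 kept probe sets; red, higher, and blue, lower in shoots, filled where the root change passed an adjusted p of 0.05, with a dashed line of equal change. The red points have a median of 1.06 on the shoot axis and 0.35 on the root axis, and 10 of the blue ones are filled above 0.

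**Figure D5:**
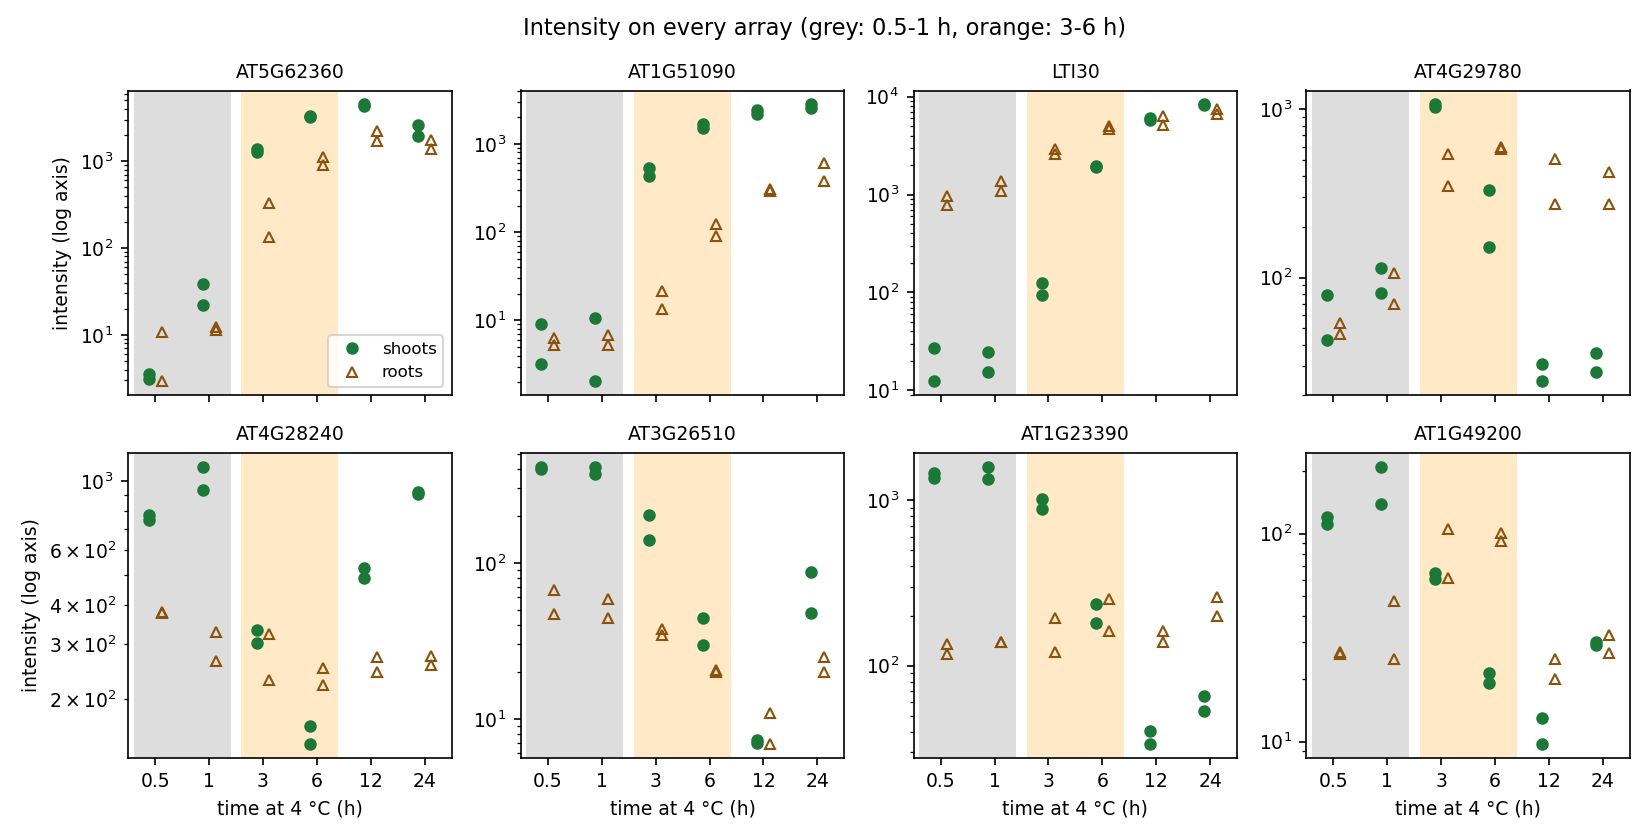
Intensity on every array (log axis) over time at 4 °C for 8 genes named in the text, shoots as filled circles and roots as open triangles, with the later times shaded orange and the early times grey. AT4G29780 peaks in shoots at 3 h, LTI30 starts higher in roots, AT4G28240 reads 906 and 921 after 24 h in shoots, and AT1G49200 moves in opposite directions in the tissues.

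Neighbouring genes were kept together in a few places. Of 5849 pairs of adjacent genes both measured, 22 pairs (0.376%) were both kept as higher and 13 (0.222%) both as lower. Of the measured genes, 3.25% were kept as higher and 4.9% as lower. Whether the pairs exceed what those shares give was not tested. Among the increases 3 runs had 3 members each, of which 1 was AT2G42520, a helicase-type gene, with COR15B and COR15A, and the others ran from AT2G31800 to AT2G31820 and from AT4G02330 to AT4G02350. XTH18 with XTH19, AT5G62350 with AT5G62360, and AT4G33980 with AT4G33985 were others. Some of these neighbours are close copies, and how far their probes share signal was not tested.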

How the data were processed

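Total RNA of Col-0 shoots and roots was hybridised to ATH1 arrays. The deposited values are intensities on a linear scale made by the authors with MAS5, per the submitters' processing notes; version and settings: not given in the sources used here, and detection calls were not used. Each array had a mean of 100 after 2% trimming at each end, as the values show. Of 22810 probe sets, 64 controls were set aside. No value column was without a sample (0 columns).

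From these, log2(value + 10) was taken, which understates changes of dim probe sets, and limma 3.58.1 (R 4.3.3; lmFit, eBayes) was fitted to 12 group means over 24 arrays (12 residual degrees of freedom, 2-sided, Benjamini-Hochberg over 22746 probe sets, threshold 0.05). Shoots at 3 and 6 h were contrasted with 0.5 and 1 h as the difference of the pooled group means, and likewise 6 h with 3 h, 1 h with 0.5 h, roots, and roots minus shoots. A kept probe set also had no overlap of its 4 and 4 arrays. The number of arrays limits the precision. Genes come from the platform annotation (13513 probe sets with 1 gene, 503 with several, 8730 with none listed), so many probe sets have no name here.

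Named genes were, among kept probe sets with 1 gene and the brightest per gene, the 15 highest and 15 lowest changes, the 5 highest and lowest that also passed 6 h against 3 h or the tissue difference, up to 5 per list by adjusted p, and probe sets at the edge of the rule. Members and lists were chosen with earlier results of these data known; neighbours and 24 h values were picked after seeing them. Lists of 18 kinds were described by counts and medians. Of the lists, 1 (RNA chaperones and helicases of the cold) had no gene with a probe set annotated to it alone, so nothing is said of its genes. The fit was tested on simulated data. Alternatives were another pseudocount (1 or 30), a filter (30 or more on 2 arrays), quantile normalization, median centring, an intensity trend, single times, shoot arrays alone, a replicate block and each array left out.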

Additional observations from a re-analysis of the deposited data

Results flagged for a closer look

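Of the 30 named genes with the largest changes in shoots, 28 had a change in roots that differed from that in shoots by limma's test of the difference (adjusted p under 0.05), in each case less far in the direction of the shoot change; ranking by the shoot change favours this direction. The differences, roots minus shoots on the log2 scale, were -4.12 for AT1G20030, -3.98 for AT1G51090, -3.87 for AT4G34950, -3.75 for AT1G22570, -3.63 for COR15B, -3.59 for AT2G17660, -3.49 for AT4G36010 and -3.19 for AT1G70420. They were -2.23 for LTI30, -2.06 for AT3G59350, -1.94 for COR27, -1.87 for AT5G62360, -1.80 for AT1G11210 and -0.80 for AT4G33980. Among the decreases, they were 2.96 for AT1G49200, which rose in roots, 2.64 for AT3G07350, 2.04 for AT1G23390, 1.56 for AT4G28240, 1.56 for ZCF37, 1.46 for AT3G56360, 1.43 for AT4G11710 and 1.39 for both AT3G26510 and P1R1. The last were 1.33 for AT2G38820, 1.31 for AT1G60590, 1.28 for AT3G06070, 1.26 for AT3G23880 and 1.08 for AT5G08350. The exceptions were CML38 (-1.74, adjusted p = 0.077) and AT1G04770 (0.74, adjusted p = 0.22).

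The F-box gene AT3G23880 read 147 on replicate 1 of the 1 h shoots, below the other early arrays, which were nearly alike (183 to 185), and above all later arrays (15.5 to 85.1). That array also had low GAPDH and ubiquitin controls. Of 60 sets of 4 arrays looked at in this way, 1 stood out, and chance alone marks about 1 in 20.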

How the results depend on the processing

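The 30 genes with the largest changes kept their direction under all 21 alternatives each, and 619 of 630 gene-by-alternative results stayed on their side of the threshold. The 11 exceptions were 3 h alone (AT3G56360, AT1G23390, AT2G38820, AT1G60590) and pooling the 8 shoot arrays into 2 groups (the same 4, with LTI30, AT1G04770 and ZCF37). The other named genes were less stable. For the 35 others past the threshold, 600 of 732 results stayed, 128 fell short of it and 4 reversed. For 39 named genes not past it, 788 of 814 results stayed and 26 passed. Beside 3161 calls in shoots, separate fits gave 909 with 3 h alone, 2013 against 1 h alone, 1835 with the 8 shoot arrays as 4 groups, 723 as 2 pooled groups, where the step within each side counts as spread, and 633 at 2-fold or more (530 higher, 103 lower). Leaving out each shoot array gave 2201 to 3932. Beside 1966 kept, the same rule kept 877 with 3 h alone and 3255 with 6 h alone, which need 2 later arrays instead of 4 beyond the early ones, and 723 with 2 pooled groups. The tissue difference ranged from 772 to 1551 calls, 6 h against 3 h from 488 to 634, and 1 h against 0.5 h from 92 to 2557 when arrays were left out, the last also 255 and 645 with a pseudocount of 1 and 30. Against 1 h alone, psaC (-0.16), psbD (-0.23), ndhD (-0.015) and ndhH (-0.053) turned negative. Deviations of same-numbered shoot arrays correlated at -0.135 to 0.128. Those of same-numbered root arrays correlated at -0.362 (0.5 h with 6 h) to 0.272 (3 h with 6 h), so some root arrays deviated together, in both signs. The 1 h shoots and the 3 h roots correlated at -0.264. A replicate block gave 3023 calls (1367 higher, 1656 lower) and 1901 kept. Beyond the alternatives named, the causes were not tested. Without an array, the lone one left was assumed to vary like the other groups.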

Other observations

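Several genes that rose to 3 to 6 h in shoots had returned by later times that lie outside the comparison. STZ read 279 and 269 after 12 h and 122 and 124 after 24 h, below its early array of 148 after 0.5 h in the last case. XTH18 read 30.8 and 35.3 after 12 h and 11.8 and 8.91 after 24 h. Others went on: TIL read 4065 and 4021 after 12 h and 5308 and 5270 after 24 h, and PDC2 read 1031 and 908 after 12 h. Among genes that did not pass the test between 3 to 6 h and 0.5 to 1 h, AtLEA4-1 read 63.5 and 53.3 after 24 h after at most 12.3 after 12 h, and the antenna gene LHCB4.2 read 1256 and 1655 after 24 h after 4046 and 3529 after 12 h.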
